A study of Mus musculus with 365 samples.

Results

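A set of 6 genes, listed as outside the classical B-lineage genes, was followed through single progenitor cells, 152 Ly6D+ and 213 TN (triple negative): Myl4, Mzb1, Atp1b3, Cmah, Sdc4 and Mst1r. They are 6 of 23427 genes in the count table, and they were selected on their measured levels, which were higher in the Ly6D+ cells than in the TN cells. Those levels are therefore given below as a description, without a test. The name of the set is no result: Mzb1 is known from B cells. In Ly6D+ cells the B-lineage gene Cd79a was the gene most like Myl4, Mzb1, Atp1b3 and Sdc4. The choice did not name how the genes are spread over the cells of 1 population, whether they occur in the same cells, or how they relate to Ebf1 and Ly6d there. Those measures are still not independent of it, because the genes were chosen with earlier results of these data known. Ebf1 was also found in more Ly6D+ than TN cells, so its relation to the genes is not free of the choice.

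The cells were sorted directly from femoral bone marrow of C57BL/6 mice carrying the Flt3Ltg transgene, which supplies extra Flt3 ligand. They belong to a fraction called EPLM, whose cells are known to give rise to lymphoid as well as myeloid cells. The 152 Ly6D+ cells came from chips 4, 5 and 6 of a Fluidigm C1 capture system (40, 60 and 52 cells), and the 213 TN cells from chips 1, 2 and 3 (75, 69 and 69 cells). Both groups carry the transgene, so neither shows the fraction of a wild-type mouse, and each label names a pool of 2 mice without saying which mice filled which chip. The chip is the replicate here, and its spread may be technical. A chip held 1 population, so a chip effect and a population difference cannot be told apart.

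The chips held 35734620 to 61415823 gene reads, and the median cell had 894864 to 1000074 reads on the Ly6D+ chips and 750934 to 823684 on the TN chips. The median number of genes detected was 2557.5 to 2891 on the Ly6D+ chips and 2602 to 2760 on the TN chips. Detected means at least 5 of 200000 reads drawn at random from a cell, which equals 25 CPM (reads of a gene scaled to the same total in each library). Reads carry no molecular identifiers, so intervals and floors cover counting error only. The labelled identity was checked with B-lineage markers: 4 of 20 were higher in Ly6D+ chips by edgeR (Blnk, Rag2, Cd72 and Dntt) and none lower, where 0.203% of 11797 genes passed in either direction (24 genes, adjusted p under 0.05, 988 at an unadjusted p under 0.05). Summed over the 19 markers other than Ebf1, the level was 7629 to 7974 CPM on Ly6D+ chips and 870 to 1791 CPM on TN chips. Pax5, which marks commitment to the B lineage, was found in few cells, 1.94% on Ly6D+ and 0.483% on TN chips.

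Each of the genes has a known role of its own. Myl4 encodes an atrial and embryonic light chain of myosin. Mzb1 encodes an endoplasmic reticulum protein of B and plasmacytoid dendritic cells that helps antibody assembly and secretion, Cmah the hydroxylase that adds a hydroxyl group to a sialic acid, and Atp1b3 a beta subunit of the sodium pump, which carries its catalytic alpha subunit to the membrane. Sdc4 encodes syndecan-4, a heparan sulfate proteoglycan of the cell surface, and Mst1r the receptor tyrosine kinase RON, which binds macrophage-stimulating protein. Ebf1 is a transcription factor needed for B-lineage specification, and Ly6d encodes the surface protein by which the Ly6D+ cells were sorted.

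Windows of 250 bases before an annotated start were searched for letters bound by EBF, E-protein and RUNX factors, because 4 of the genes were found more often in cells with Ebf1. The sequences are RefSeq's, build GRCm38.p6, which is not the build of the counts. TCCC and GGGA with any 2 bases between them (EBF), CAGGTG and CAGCTG (E-boxes) and TGTGGT (RUNX) were read on both strands, and none of these motifs overlapped another in the windows. Windows of 5 of the genes (8 windows in all) are described here, and none of Mzb1. Of these, 4 are shown, 5′ to 3′ on the gene's strand, with matches in capitals: Sdc4 (chr2:164443189-164443438, minus strand), Atp1b3 (chr9:96364432-96364681, minus), Myl4 (chr11:104550413-104550662, plus) and, for a gene without that relation to Ebf1, Cmah (chr13:24327154-24327403, plus).
Sdc4: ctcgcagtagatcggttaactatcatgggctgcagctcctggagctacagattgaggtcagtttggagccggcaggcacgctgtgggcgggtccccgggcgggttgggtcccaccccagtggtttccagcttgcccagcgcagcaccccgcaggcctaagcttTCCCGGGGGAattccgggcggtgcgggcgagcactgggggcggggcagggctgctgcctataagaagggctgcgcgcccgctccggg
Atp1b3: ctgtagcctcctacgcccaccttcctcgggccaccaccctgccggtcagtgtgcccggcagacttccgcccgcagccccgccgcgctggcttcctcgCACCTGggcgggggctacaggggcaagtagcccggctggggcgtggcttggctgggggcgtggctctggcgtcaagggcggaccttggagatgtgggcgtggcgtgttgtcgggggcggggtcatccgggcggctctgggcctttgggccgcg
Myl4: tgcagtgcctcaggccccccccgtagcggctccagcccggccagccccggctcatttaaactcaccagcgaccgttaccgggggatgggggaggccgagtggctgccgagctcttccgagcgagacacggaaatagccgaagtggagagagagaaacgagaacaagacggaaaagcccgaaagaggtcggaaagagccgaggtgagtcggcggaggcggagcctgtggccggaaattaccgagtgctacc
Cmah: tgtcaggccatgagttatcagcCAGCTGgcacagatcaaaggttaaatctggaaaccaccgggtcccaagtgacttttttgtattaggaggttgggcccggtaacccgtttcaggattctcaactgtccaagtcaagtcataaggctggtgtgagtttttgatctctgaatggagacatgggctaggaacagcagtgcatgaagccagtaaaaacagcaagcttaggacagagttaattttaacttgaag
The Sdc4 window holds the EBF letters once, beginning 87 bases before the start, and 0.779% of 32851 windows of this length do. The Atp1b3 window holds CAGGTG once, read on the other strand (17.2% of all windows), and both Cmah windows and both Mst1r windows hold CAGCTG (13.0% of all). The Mst1r window farther downstream also holds TGTGGT (14% of all), and the Myl4 window and the Atp1b3 window that is not shown hold none of the 4 motifs. A match is a run of letters, not a shown binding site, and a window without one says nothing about the factor.

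Myl4 was detected in 20 of 40, 31 of 60 and 30 of 52 cells on the Ly6D+ chips, against 8 of 75, 7 of 69 and 6 of 69 on the TN chips. Its level, in CPM of the reads summed over a chip, was 140, 195 and 202 on the Ly6D+ chips, against 12.6, 11.1 and 8.66 on the TN chips. No Ly6D+ chip came near a TN chip in either measure, and the log2 fold change was 4.05 ± 0.35 (SE). Where it was detected, the median was 221 CPM in Ly6D+ and 78.5 CPM in TN cells, so the difference lay in both the share of cells and the level within them. In the RefSeq gene table Myl4 overlaps Cdc27 and 4 predicted genes, and the libraries do not mark the strand, so reads there are uncertain. Cdc27 itself had a log2 fold change of 0.30 ± 0.43, with its SE, and an adjusted p = 0.912 by edgeR. Of the 31-base words of the Myl4 transcripts, 0 of 4654 occur in the transcripts of 9 other myosin light chain genes searched, Myl10 among them.

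Mzb1 was detected in 21 of 40, 25 of 60 and 28 of 52 cells on the Ly6D+ chips, against 0 of 75, 5 of 69 and 1 of 69 on the TN chips. Its chip level was 204, 107 and 204 CPM on the Ly6D+ chips and 0, 17.5 and 38.5 CPM on the TN chips. The TN chips are the uneven ones: 1 cell of TN chip 3, at 2218 CPM, held 99.5% of that chip's Mzb1 reads. The same cell held 71.9% of the chip's Ly6d reads and had 4 of the genes detected. The log2 fold change was 3.2 ± 1.55 (SE).

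Atp1b3 was the most widespread of the genes, in 31 of 40, 46 of 60 and 48 of 52 cells on the Ly6D+ chips, against 44 of 75, 31 of 69 and 33 of 69 on the TN chips. Chip levels were 359, 415 and 397 CPM on the Ly6D+ chips, against 138, 117 and 122 CPM on the TN chips. The chips of the populations did not overlap, and within a population they lay close together. The log2 fold change was 1.64 ± 0.21 (SE).

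Cmah was detected in 27 of 40, 32 of 60 and 38 of 52 cells on the Ly6D+ chips, against 13 of 75, 10 of 69 and 7 of 69 on the TN chips. Levels were 293, 140 and 172 CPM on the Ly6D+ chips and 38.4, 30.9 and 29.7 CPM on the TN chips. Ly6D+ chip 4 stood highest although chip 6 had the larger share of cells, and the log2 fold change was 2.61 ± 0.36 (SE). A predicted gene overlaps Cmah in the RefSeq table.

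Sdc4 was detected in 18 of 40, 29 of 60 and 21 of 52 cells on the Ly6D+ chips, against 11 of 75, 12 of 69 and 7 of 69 on the TN chips. The shares did not overlap, but the levels did: 277, 428 and 307 CPM on the Ly6D+ chips, against 205, 283 and 49.3 CPM on the TN chips. A single cell held 53.5% of the Sdc4 reads of TN chip 2, at 12399 CPM and with 734 genes detected, and another held 50.5% on TN chip 1, at 8209 CPM. The log2 fold change was 0.91 ± 0.54 (SE) with all cells and 1.82 without those 2 cells, a setting chosen after seeing the data. It was 2.24 without the 7 Ly6D+ and 16 TN cells of fewer than 1500 detected genes.

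Mst1r was rare and had reads in Ly6D+ cells alone: 6 of 40, 3 of 60 and 3 of 52 cells were past the detection limit there, against 0 of 213 TN cells, which allows a TN share of up to 1.41%. At 1 or more reads it was found in 15 Ly6D+ and 0 TN cells. Chip levels were 65.2, 15.8 and 38.8 CPM on the Ly6D+ chips, and 1 cell held 57.8% to 65.6% of each. The TN chips hold no Mst1r read, so no fold change is given.

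**Figure D1:**
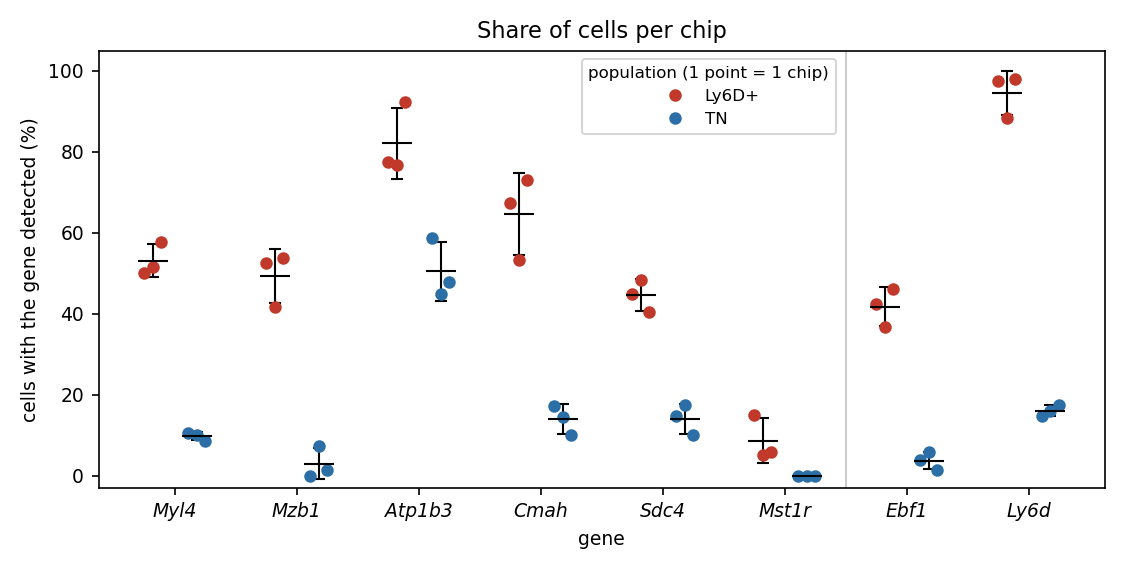
Share of cells (%) in which each gene was detected, by chip; each point is 1 chip (3 Ly6D+ chips, left of the 3 TN chips at each gene) and the bars are the mean ± SD. The Ly6D+ chips lie above the TN chips for all 6 genes and for Ebf1 and Ly6d; Mst1r reaches 15.0% on 1 Ly6D+ chip and is at 0 on the TN chips.

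Averaged over chips, detection was 82.2% ± 8.8 of Ly6D+ and 50.5% ± 7.2 of TN cells for Atp1b3, 64.6% ± 10.2 and 14% ± 3.6 for Cmah, 53.1% ± 4.1 and 9.84% ± 1.02 for Myl4 (SD, n = 3 chips each). Mzb1 followed with 49.3% ± 6.7 of Ly6D+ and 2.90% ± 3.83 of TN cells, Sdc4 with 44.6% ± 4.0 and 14.1% ± 3.7, and Mst1r with 8.59% ± 5.56 and 0%. In Ly6D+ cells the shares of Cmah, Myl4, Mzb1 and Sdc4 overlapped between chips for neighbours in this order, and those of Atp1b3 and Mst1r overlapped with no other. Per kilobase of gene length the order of levels changed: Atp1b3 (213 CPM per kb), Myl4 (203) and Mzb1 (189) stood highest in Ly6D+ cells, then Sdc4 (137), Cmah (20.7) and Mst1r (8.5). The share was 41.8% ± 4.8 of Ly6D+ and 3.75% ± 2.18 of TN cells for Ebf1, and 94.6% ± 5.5 and 16% ± 1.4 for Ly6d. Ly6d is the marker of the sort, so its difference is no finding.

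No member of the 6 partner lists passed the edgeR test between Ly6D+ and TN chips, where 0.203% of all genes did, and the median log2 fold change of all genes was 0.01. Of 9 myosin light chain and partner genes tested, 5 were above 0 and 4 below, with a median log2 fold change of 0.70; the abundant Myl12b, Myl6 and Myl12a, light chains of non-muscle myosin, had values of -0.55 ± 0.25, -0.65 ± 0.30 and -0.24 ± 0.27 (SE). Of 17 folding and secretion genes of the endoplasmic reticulum, 3 were above 0 and 14 below (median -0.43), and Canx, Hspa5 and Hsp90b1, chaperones, had -0.06 ± 0.27, -0.11 ± 0.22 and -0.49 ± 0.29. Plasma cell markers were also not called: of 7 listed, Prdm1 and Tnfrsf17 had no read in Ly6D+ or TN cells. Of 4 tested, 3 were above 0 and 1 below, with a median log2 fold change of 1.46. By edgeR, 2 of them had an unadjusted p under 0.05. The summed level was 152 to 257 CPM on Ly6D+ and 112 to 152 CPM on TN chips.

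Sodium pump genes gave 2 of 6 above 0 and 4 below (median -0.22). Fxyd5, a regulator of the pump, had 444 ± 25 CPM in Ly6D+ and 568 ± 176 CPM in TN chips, and the beta subunit gene Atp1b1 44.7 ± 28.6 and 21.8 ± 6.8 CPM (SD, n = 3 each). Of 19 genes of sialic acid synthesis, transfer and binding, 9 were above 0 and 10 below (median -0.19). The most abundant per kilobase were a pair of sialyltransferase genes with fold changes of opposite sign, and Cmas. St3gal4 had 32.9 ± 3.3 CPM in Ly6D+ and 110 ± 44 CPM in TN chips (SD, n = 3 each), or -1.74 ± 0.40 as log2 fold change with its SE (adjusted p = 0.198 by edgeR). St3gal6 had 83.8 ± 6.8 CPM in Ly6D+ and 13.9 ± 8.5 CPM in TN chips (SD, n = 3 each), or 2.59 ± 0.53 as log2 fold change with its SE (adjusted p = 0.166 by edgeR). Neither passed the test. The chips of the populations overlapped for neither, which also held for Myl6 and Myl12b above. The share of all genes without overlap was not counted. Cmas, which activates sialic acid, had 51.2 ± 24.4 and 35.5 ± 12.1 CPM. Of 18 syndecan and heparan sulfate genes, 9 were above 0 and 9 below (median -0.03), and Sdc1, another syndecan, had 54.2 ± 39.4 CPM in Ly6D+ and 11.6 ± 10.2 CPM in TN chips (log2 fold change 2.22 ± 0.85 with its SE, adjusted p = 0.491 by edgeR). Sdcbp, whose protein syntenin binds syndecans, had 551 ± 71 CPM in Ly6D+ and 653 ± 197 CPM in TN chips, and Ndst1, a heparan sulfate sulfotransferase, 43.4 ± 25.7 and 59.8 ± 30.7 CPM. Of 7 genes around RON and MET, 2 were above 0 and 5 below (median -0.52). Grb2, an adaptor of both receptors, had 60.5 ± 12.3 CPM in Ly6D+ and 70.0 ± 16.5 CPM in TN chips, and Gab2, another adaptor, 22.3 ± 13.5 and 14.6 ± 15.8 CPM. Met, the receptor most like RON, had 13.5 ± 7.5 CPM in Ly6D+ and 57.7 ± 20.8 CPM in TN chips, or -2.10 ± 0.60 as log2 fold change with its SE (adjusted p = 0.307 by edgeR). Its chips did not overlap. Mst1, the ligand gene of RON, is named outside the rule on abundance, its values known. It had reads in 4 Ly6D+ and 6 TN cells.

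Within the Ly6D+ population the genes were not spread evenly over the cells. A Ly6D+ cell had 3.02 ± 0.24 of the 6 genes detected and a TN cell 0.913 ± 0.118 (mean ± SD of 3 chip means). All 6 were found together in no cell, 5 of them in 27 Ly6D+ and 0 TN cells, and none in 3 Ly6D+ and 72 TN cells. If each gene were placed in cells independently at its share on each chip, 11.6 Ly6D+ cells would hold 5 of the genes and 52.9 would hold 3, against 27 and 34 observed. Among TN cells, 72 held none of the genes against 68.1 from the shares, 8 held 3 against 5.69, and 2 held 4 against 0.354. Whether the populations differ in this was not tested.

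**Figure D2:**
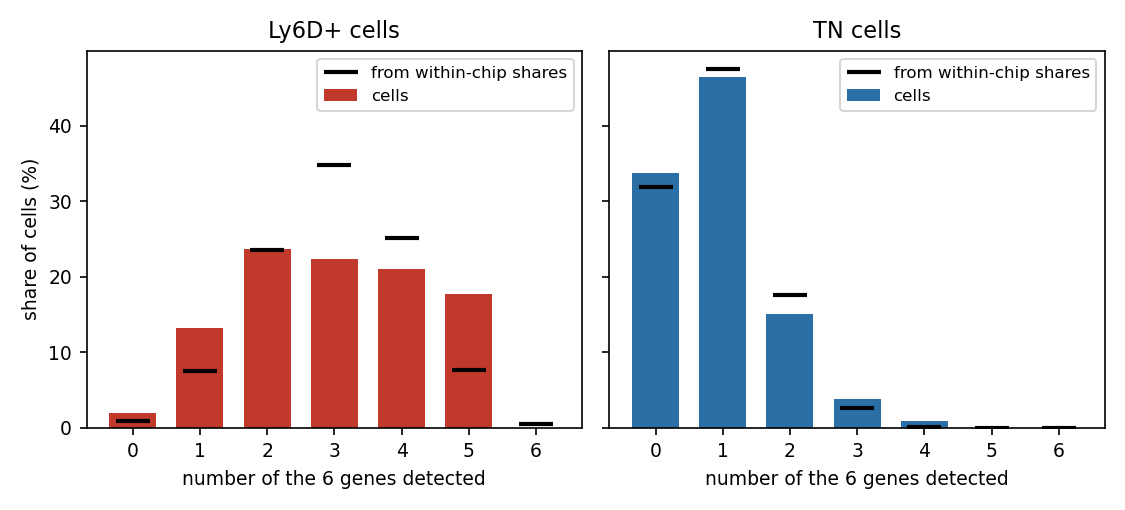
Share of cells (%) by the number of the 6 genes detected, for Ly6D+ cells (left) and TN cells (right); bars are observed cells and black marks are the number that the within-chip share of each gene alone would give. In Ly6D+ cells the bars exceed the marks at 1 and at 5 genes and lie under them at 3.

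Among the pairs in Ly6D+ cells, Mzb1 and Sdc4 had the largest excess over their shares at the detection limit used. Both were detected in 48 Ly6D+ cells where the within-chip shares alone would give 32.8, more than that on 3 of 3 chips. At 1 or more raw reads it was 55 cells against 45.5, above on 2 of 3 chips, and Myl4 and Sdc4 had a like excess, 61 against 51.4. Myl4 shared 50 cells with Mzb1 (39.6 from the shares, above on 2 of 3 chips) and 44 with Sdc4 (36.1, above on 2 of 3). Atp1b3 is in most cells and had little room to differ: 65 cells with Mzb1 against 61.3 and 60 with Sdc4 against 55.6, above on 3 of 3 chips in both. Cmah was found with Mzb1 in 48 cells, against 47.97 from the shares, and with Sdc4 in 45 against 42.96. Mst1r met Cmah in 10 of its 12 cells, against 7.84, but in 11 against 11.9 at 1 or more raw reads and in 5 against 4.64 at 10 or more thinned reads. It met Mzb1 in 5 cells, against 6.02. In TN cells the counts were small: 4 cells held Mzb1 and Cmah (0.826 from the shares) and 8 held Cmah and Sdc4 (4.36).

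Spearman's correlations of levels across cells, computed within each chip and averaged over 3 chips, were highest in Ly6D+ cells among Myl4, Mzb1, Atp1b3 and Sdc4. These are descriptions over 152 Ly6D+ cells that share a library chemistry and a chip, in sparse reads, and carry no p. Mzb1 correlated with Atp1b3 at 0.40 ± 0.07 (SD), with Sdc4 at 0.38 ± 0.12 and with Myl4 at 0.31 ± 0.18. Cmah stayed between 0.01 and 0.08 with Myl4, Mzb1, Atp1b3 and Sdc4, and its chip values ran from -0.27 to 0.37, with chip 6 above 0 for each of the 4 pairs. Mst1r lay between -0.18 and -0.02 with the other 5 genes. The correlation of Mzb1 with the number of genes detected in a cell was -0.29 ± 0.23, that of Atp1b3 -0.27 ± 0.21 and that of Sdc4 -0.30 ± 0.09, below 0 on 3 of 3 chips for each of them.

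**Figure D3:**
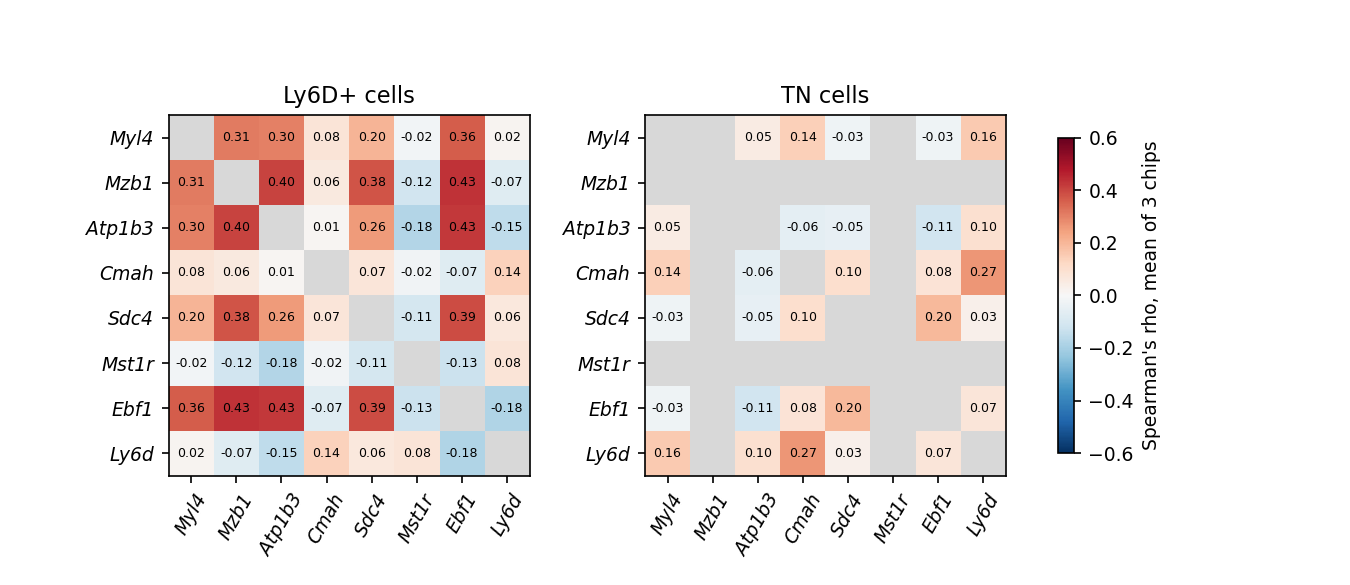
Spearman's rho between the 6 genes, Ebf1 and Ly6d across cells, as the mean of 3 chips, for Ly6D+ cells (left) and TN cells (right); the colour scale runs between -0.6 and 0.6, and grey squares could not be computed on all 3 chips. Ebf1 is positive with Myl4, Mzb1, Atp1b3 and Sdc4 in Ly6D+ cells (0.36 to 0.43).

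Ebf1 divided the Ly6D+ cells into 63 in which it was detected and 89 in which it was not. In the cells with Ebf1, Mzb1, Sdc4, Myl4 and Atp1b3 were found more often, on each of the 3 chips. The share of all genes that did so was not counted. Mzb1 was detected in 13 of 17, 13 of 22 and 20 of 24 Ebf1-detected cells on chips 4, 5 and 6, against 8 of 23, 12 of 38 and 8 of 28 Ebf1-undetected cells, or 73.0% ± 12.5 against 31.6% ± 3.1 (SD, n = 3 chips each). Sdc4 was detected in 9 of 17, 16 of 22 and 16 of 24 Ebf1-detected cells, against 9 of 23, 13 of 38 and 5 of 28 others (64.1% ± 10.1 against 30.4% ± 11.1). The shares of both were higher with Ebf1 on each chip, least so for Sdc4 on chip 4. Myl4 was detected in 10 of 17, 14 of 22 and 21 of 24 Ebf1-detected cells, against 10 of 23, 17 of 38 and 9 of 28 others (70.0% ± 15.4 against 40.1% ± 6.9). Atp1b3 was detected in 90.1% ± 5.0 of Ebf1-detected and 76.6% ± 11 of Ebf1-undetected cells. Chip 6 held the widest gap for Mzb1, Sdc4 and Myl4. With 3 pairs of values an exact two-sided test cannot go below p = 0.25, so none is given for the shares.

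Cmah and Mst1r did not follow Ebf1. Cmah was detected in 10 of 17, 8 of 22 and 20 of 24 Ebf1-detected cells, against 17 of 23, 24 of 38 and 18 of 28 others: lower with Ebf1 on chips 4 and 5 and higher on chip 6 (59.5% ± 23.5 against 67.1% ± 5.9). Mst1r was detected in 3 of 63 Ebf1-detected and 9 of 89 Ebf1-undetected cells, lower on 3 of 3 chips. At 10 or more thinned reads, 3 cells held both Mst1r and Ebf1 against 3.25 from the within-chip shares, above on 2 of 3 chips. Ly6d was detected in 61 of 63 and 82 of 89. The number of the 6 genes per cell was 3.47, 3.23 and 4.17 in Ebf1-detected cells of chips 4, 5 and 6, against 2.78, 2.50 and 2.43 in the others.

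**Figure D4:**
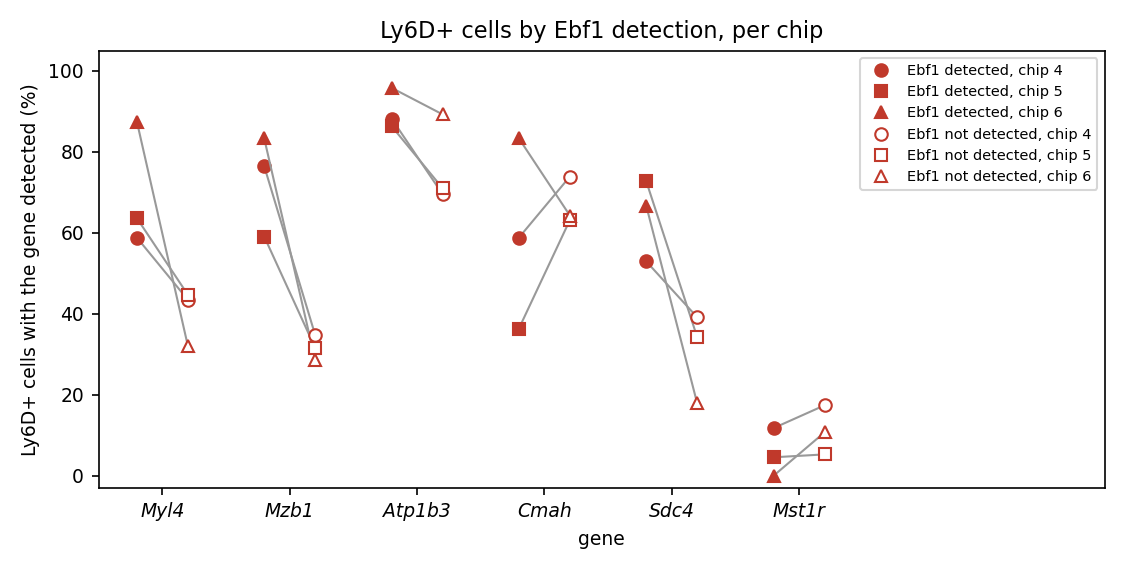
Share of Ly6D+ cells (%) in which each gene was detected, for cells with Ebf1 (filled, left) and without it (open, right) on the same chip, joined by a line; the 3 marker shapes are chips 4, 5 and 6. The lines fall to the right for Myl4, Mzb1, Atp1b3 and Sdc4, rise for Mst1r, and go both ways for Cmah.

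The summed reads of these cells were tested with edgeR, with the chip as a block, over all genes. Of 10652 genes other than Ebf1, 0 passed (0.0%), while 481 had an unadjusted p under 0.05; DESeq2 on the same sums passed 4.42% of 10238 genes. Sdc4 had 477, 739 and 562 CPM in Ebf1-detected cells of chips 4, 5 and 6, against 135, 240 and 86.3 CPM in Ebf1-undetected cells, which gave 2.05 ± 0.31 as log2 fold change with its SE (adjusted p = 1.0 by edgeR and 7e-06 by DESeq2). Atp1b3 had 561, 738 and 603 CPM with Ebf1, against 213, 221 and 217 CPM without it, which gave 1.54 ± 0.23 as log2 fold change with its SE (adjusted p = 1.0 by edgeR and 7.74e-05 by DESeq2). For Sdc4, Atp1b3 and Mzb1 the chips did not overlap, and how many of all genes did so was not counted. Mzb1 had 335, 150 and 381 CPM with Ebf1, against 110, 80.6 and 51.8 CPM without it (1.79 ± 0.49 SE, edgeR adjusted p = 1.0, DESeq2 adjusted p = 0.0120). Myl4 levels differed on chip 6 alone, with 322 against 97.9 CPM, and were 134 against 138 and 189 against 196 CPM on chips 4 and 5 (0.53 ± 0.48 SE, edgeR adjusted p = 1.0, and -0.07 without chip 6). So the detection of Myl4 differed on 3 chips and its summed level on 1. Cmah had 152, 133 and 257 CPM with Ebf1, against 373, 142 and 97.5 CPM without it, and a log2 fold change of -0.00 ± 0.57 (SE), which was 0.64 without chip 4.

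Other features of the cells moved with Ebf1 as well. Ebf1-detected cells had 8.48 ± 0.98 of the 19 other B-lineage markers detected and Ebf1-undetected cells 4.53 ± 0.74 (SD, n = 3 chips each), with summed levels of 10370 to 12438 CPM and 3523 to 6345 CPM and no marker at 0. They had fewer of 20 genes of the G2 and M phases of the cell cycle, 3.37 ± 1.35 against 6.43 ± 1.32 (866 to 3462 CPM against 3233 to 5093 CPM), and fewer of 13 plasmacytoid dendritic cell markers, 3.45 ± 0.57 against 4.08 ± 0.81 (1059 to 1534 CPM against 1773 to 2939 CPM, with Klk1 at 0 in both and Pacsin1 at 0 in the cells with Ebf1). They had fewer genes detected in all, 2562 ± 113 against 2782 ± 292, and fewer of 14 T and innate lymphoid markers, 1.98 ± 0.18 against 2.33 ± 0.24 (829 to 1411 CPM against 1093 to 1741 CPM, with 7 at 0 against 6). They had more of 15 interferon-response genes, 5.24 ± 2.67 against 4.38 ± 2.68 (826 to 7359 CPM against 431 to 5922 CPM, none at 0). Each of these moved the same way on 3 of 3 chips. Among the Ly6D+ cells with at most 3 of the G2 and M genes, a setting chosen after seeing the data, Mzb1 was detected in 33 of 45 Ebf1-detected and 14 of 44 Ebf1-undetected cells, Sdc4 in 31 and 18, and Atp1b3 in 40 and 33, each higher on 3 of 3 chips. In those cells Myl4 was detected in 30 of 45 and 21 of 44 and was higher on 2 of 3 chips, and Mst1r in 0 of 45 and 5 of 44. The part of the other features in these differences was not tested.

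The Ly6D+ cells were also divided by their amount of Ly6d. The 76 cells of higher Ly6d on their chip were set against the 76 of lower Ly6d. Detection was 55.0% ± 5.9 against 51.3% ± 2.2 for Myl4, 44.6% ± 8.0 against 54.1% ± 10.8 for Mzb1, 84.1% ± 7.1 against 80.2% ± 10.5 for Atp1b3, 69.7% ± 9.6 against 59.6% ± 14.3 for Cmah and 46.7% ± 5.8 against 42.5% ± 10.3 for Sdc4 (SD, n = 3 chips each). These gaps in detection are about the size of the spread between chips. The level of Atp1b3 ran opposite to its detection on 2 chips, with 208, 341 and 405 CPM in cells of higher Ly6d on chips 4, 5 and 6, against 513, 507 and 378 CPM in cells of lower Ly6d (log2 fold change -0.59 ± 0.33 SE, edgeR adjusted p = 1.0). Its Spearman's rho with Ly6d was -0.15 ± 0.13 and below 0 on 3 of 3 chips. Detection of Mzb1 was lower with higher Ly6d on chips 4 and 5 and equal on chip 6. The level of Mzb1 was 169, 153 and 192 CPM on chips 4, 5 and 6 with higher Ly6d. With lower Ly6d it was 235, 50.0 and 209 CPM (log2 fold change 0.32 ± 0.51 SE), so on chip 5 it ran opposite to detection. Mst1r was detected in 8 against 4 cells, higher on 3 of 3 chips. In the edgeR fit 0 of 10713 genes other than Ly6d passed (0.0%, with 422 at an unadjusted p under 0.05), and DESeq2 passed 3.35% of 10297. Among the 6 genes DESeq2 passed Mst1r alone: its chip levels were 83.7, 27.7 and 77.3 CPM with higher Ly6d, against 42.9, 1.06 and 1.16 CPM, and rest on few cells (log2 fold change 4.07 ± 1.47 SE, edgeR adjusted p = 1.0, DESeq2 adjusted p = 0.00392). The log2 fold change was 1.68 without cells of fewer than 1500 detected genes. Cells of higher Ly6d had 5.47 ± 0.63 B-lineage markers detected and those of lower Ly6d 6.98 ± 0.46 (4437 to 7759 CPM against 7592 to 11394 CPM, no marker at 0). They also had more genes detected (2794 ± 94 against 2576 ± 336) and more plasmacytoid dendritic cell markers (4.30 ± 0.79 against 3.34 ± 0.82, or 1812 to 2705 CPM against 1087 to 2028 CPM, Klk1 at 0 in both). Of 12 myeloid progenitor markers they had 0.382 ± 0.031 against 0.568 ± 0.031 (45.9 to 81.1 CPM against 95.8 to 640 CPM, 4 at 0 in each), and each of these moved the same way on 3 of 3 chips. The part of these features in the values above was not tested.

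In the TN population, where 34 of 213 cells had Ly6d detected, Cmah was found more often in the cells with Ly6d. Cmah was detected in 35.4% ± 1.7 of Ly6d-detected and 9.89% ± 4.42 of Ly6d-undetected TN cells (12 of 34 and 18 of 179, higher on 3 of 3 chips). Its levels were 120, 147 and 136 CPM in Ly6d-detected cells of chips 1, 2 and 3, against 23.9, 9.47 and 8.61 CPM in the others. These Cmah levels did not overlap, and how many of all genes did so was not counted. The log2 fold change was 3.43 ± 0.75 with its SE (adjusted p = 0.883 by edgeR and 3.37e-05 by DESeq2), and 3.02 without the 2 cells of most Ly6d reads, chosen after seeing the data. In this fit 0 of 10792 genes other than Ly6d passed with edgeR (0.0%, with 588 at an unadjusted p under 0.05) and 5.5% of 9745 with DESeq2, and the median log2 fold change of all genes was -0.34. Atp1b3 was detected in 64.6% ± 1.7 of Ly6d-detected and 47.7% ± 8.9 of the other TN cells, Myl4 in 6 of 34 and 15 of 179, Sdc4 in 7 and 23, and Mzb1 in 5 and 1. Myl4 and Sdc4 were higher on 2 of 3 chips. Ly6d-detected TN cells had 2794 ± 241 genes detected and the others 2470 ± 58, and they had more plasmacytoid dendritic cell markers (4.56 ± 0.89 of 13 against 2.99 ± 0.43, summed level 1953 to 3074 CPM against 1118 to 1725 CPM, Klk1 at 0 in both). Their conventional dendritic cell markers summed to 791 to 1779 CPM against 3625 to 6582 CPM, with 3 of 10 at 0 against none. Per cell, 1.99 ± 0.37 of these were detected against 2.37 ± 0.20, higher on 1 of 3 chips. Myeloid progenitor markers summed to 160 to 465 CPM against 1873 to 3998 CPM (1.27 ± 0.10 detected of 12 against 1.97 ± 0.52, lower on 3 of 3 chips, with 4 at 0 against 1). B-lineage markers were detected at 2.43 ± 1.13 of 19 against 1.33 ± 0.18 per cell, higher on 3 of 3 chips, and summed to 1649 to 2711 CPM against 664 to 1818 CPM, with Pax5, Rag1 and Pou2af1 at 0 against Pou2af1 alone. The part of these differences in the Cmah values was not tested.

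Ebf1 was detected in 8 TN cells, too few for a fit. Sdc4 was detected in 5 of them, Cmah in 3, Atp1b3 in 2, Mzb1 in 1, and Myl4 and Mst1r in 0. The 5 with Sdc4 ranged between 240 and 4647 CPM of Sdc4. The TN cell of most Ebf1 (9472 CPM) had 13 of 19 other B-lineage markers and 1088 genes detected, and Sdc4 was the only one of the 6 genes in it. The next (2597 CPM) had 15 of 19 markers and held Mzb1, Atp1b3 and Sdc4.

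The genes most like each in the Ly6D+ cells were looked for among 6983 or 6984 genes detected in at least 10% of the cells, by the mean Spearman's rho within the 3 chips, with all 3 above 0. Cd79a, a signalling chain of the B cell receptor, came first for 4 genes. Its rho was 0.56 ± 0.04 with Mzb1, 0.47 ± 0.30 with Atp1b3, 0.44 ± 0.03 with Sdc4 and 0.39 ± 0.10 with Myl4 (SD, n = 3 chips). With Atp1b3 the chip values of Cd79a ran from 0.16 to 0.76. Ebf1 ranked 3 for Atp1b3 and 4 for Mzb1, Sdc4 and Myl4. The recombinase gene Rag1 was next after Cd79a for Mzb1 (0.45) and Atp1b3 (0.47), the adaptor gene Blnk followed for Mzb1 (0.44), and the surrogate light chain gene Vpreb3 next for Sdc4 (0.40). For Myl4 it was Myl10, another myosin light chain (0.38). Cd79a was detected in 60.6% ± 3.4 of Ly6D+ cells with Mzb1 and 15.1% ± 2.4 of those without, in 60.5% ± 1.7 and 19.0% ± 3.3 by Sdc4, and in 53.9% ± 5.4 and 18.3% ± 8.2 by Myl4 (SD, n = 3 chips each). It was picked for its correlation with these genes in the same cells, so the shares restate that choice.

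Cmah and Mst1r had other neighbours. Rnf6 (0.33) and Bex6 (0.30) were among the first for Cmah, and Amz2 (0.34), B3gnt5 (0.30) and Kdm4a (0.29) came first for Mst1r, all weak. Ebf1 ranked 5908 of 6983 genes for Cmah and 6821 of 6984 for Mst1r. Cd79a was detected in 35.8% ± 7.1 of Ly6D+ cells with Cmah and 37.8% ± 8.9 of those without, and in 2 of the 12 cells with Mst1r. Dntt, the terminal transferase of early lymphoid cells, was detected in 12 of 12 cells with Mst1r and in 94 of 97 with Cmah, where most Ly6D+ cells have it.

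In TN cells the order was different for the genes that could be ranked. Dntt came first for Cmah (0.53, over 213 cells) and next after Il12a (0.38) for Myl4 (0.37). Dntt was detected in 84.2% ± 6.7 of TN cells with Cmah and 21.4% ± 3.5 of those without, and in 72.2% ± 25.5 and 25.5% ± 2.9 by Myl4, higher on 3 of 3 chips in both. Il7r, the receptor for interleukin-7, came first for Sdc4 (0.45) and was detected in 50.2% ± 18.9 of TN cells with Sdc4 and 8.85% ± 3.05 of those without. Dntt and Il7r were picked for their correlation in these same cells, above 0 on 3 of 3 chips, so their shares restate that choice. Cct3, a chaperonin subunit, came first for Atp1b3 (0.32), whose level also went with the number of genes detected (0.24 ± 0.06). Whether these orders differ between the populations was not tested.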

How the data were processed

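Full-length cDNA of single cells was amplified by template switching on Fluidigm C1 chips with a SMARTer kit and made into libraries with Nextera XT, per the labels' protocols. The authors deposited whole-number read counts for each gene in each cell, without normalization. The build mm9 and R 3.2.0 come from the submitters' processing notes. For the aligner, the counting program and the strand setting, the sources used here give nothing. Capture yielded 178 Ly6D+ and 232 TN cells, per the design text, of which the authors kept 152 and 213 after filters on mapped reads (60%), counts and detected genes (800). Doublets are not mentioned there, no caller was run, and 0 cells repeated the counts of another. Symbols for 23334 of 23427 Entrez identifiers came from a RefSeq table.

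The 6 genes, the lists and the tests were chosen with earlier results of these data known. Cells were thinned to 200000 reads (lowest cell 267852), and a gene was detected at 5 or more. Counts were summed per chip, or per chip and part of its cells, and tested with edgeR 4.0.16 (quasi-likelihood, TMM, filterByExpr, Benjamini-Hochberg adjusted p under 0.05); within a population the chip was a block, so that both parts of a chip were compared with each other. All 6 genes passed the filter except Mst1r in the TN fit. CPM use TMM-scaled sums. The gene that splits the cells was not counted. Alternatives were DESeq2 1.42.0, limma-trend 3.58.1 (prior count 2), no filter, other detection limits, thinned sums, no block, fewer cells and each chip left out. The named genes were the 6, Ebf1 and Ly6d, the 3 most abundant partners per kilobase in each list, and up to 5 most alike, some of which are not reported here; the fits were tested on simulated data.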

Additional observations from a re-analysis of the deposited data

Results flagged for a closer look

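At the detection limit of 5 thinned reads, the differences of Myl4 and Atp1b3 by Ebf1 had opposite signs in the populations, on 3 chips of each. The share of cells with Myl4 was 29.9 points higher in Ebf1-detected than in Ebf1-undetected Ly6D+ cells (mean of 3 chips), and the same difference was -10.2 points in TN cells. For Atp1b3 it was 13.5 points in Ly6D+ cells and -32.0 points in TN cells. Only 8 TN cells had Ebf1 detected (3, 4 and 1 on chips 1, 2 and 3), and 0 of them had Myl4 and 2 had Atp1b3, where the within-chip shares alone would give 0.813 and 4.04 cells. So few cells cannot show a lower share of Myl4. At 1 or more raw reads Myl4 was above its share on 1 TN chip, and at 10 or more thinned reads Atp1b3 was above its share on 1 TN chip. The difference between the populations was not tested.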

How the results depend on the processing

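Between Ly6D+ and TN chips, edgeR passed 24 genes, DESeq2 390 and limma-trend 37, and 2 to 23 with 1 chip left out (2 without chip 6, 4 without chip 4, 7 without chip 3). In the 3 fits within a population edgeR passed 0 genes under each alternative run with it, limma-trend 0, and DESeq2 453 (Ebf1), 345 (amount of Ly6d) and 536 (Ly6d in TN cells); without the replicate block the count was also 0. Some signs turned. In the Ebf1 fit, the log2 fold change of Myl4 ran between -0.071 (without chip 6) and 0.841 with 1 chip left out, and that of Cmah between -0.717 (without chip 6) and 0.643 (without chip 4; 0.051 without chip 5); Cmah had 0.027 with DESeq2, 0.005 with limma-trend and 0.032 without cells of fewer than 1500 genes. By the amount of Ly6d, Mzb1 ran between -0.307 (without chip 5) and 0.75, and Sdc4 between -0.733 and 0.688 (without chip 4), with 0.121 without cells of few genes and 0.042 without the replicate block. In TN cells by Ly6d, Sdc4 (-0.82 with all chips and cells) ran between -4.996 and 1.857 (without chip 1), with 1.007 without cells of few genes. The causes were not tested. At 1 or more raw reads the shares were higher (Myl4 69.2% of Ly6D+ and 18.2% of TN cells), and at 10 or more thinned reads lower (46.5% and 7.98%). The 11 differences between observed and share-based co-detection with Ebf1, summed over chips, kept their sign at both limits, though single chips turned. Mst1r in TN cells, without a read, has no such difference. With 3 chips per group and reads that are not molecules, a gene missing from a cell may be undetected at this depth.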

Other observations

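Among the partners of the genes, 1 chosen after its values were seen stood apart from its list without passing the edgeR test. Myl10 had 26.0 ± 14.2 CPM in Ly6D+ and 2.00 ± 1.42 CPM in TN chips, or 3.70 ± 1.05 as log2 fold change with its SE (adjusted p = 0.297 by edgeR), and reads in 93 of 152 Ly6D+ and 19 of 213 TN cells.

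A single cell of TN chip 3 and another of TN chip 2 each had 4 of the 6 genes detected, the most of any TN cell. They were also the TN cells of most Ly6d, at 11776 and 8509 CPM, and neither had Ebf1 detected. They had 5 and 4 of 19 other B-lineage markers.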
